A study of Mus musculus with 6 samples.

Results

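The genes described here code for the protein part of the mitochondrial ribosome. They were taken from a table of raw read counts per gene as all genes whose mouse symbol begins with Mrpl or Mrps, followed by a number and at most 1 letter, so the choice used names and no measured value. The rule found 77 of 37620 genes, 48 named for the large subunit (Mrpl) and 29 for the small subunit (Mrps). Mrpl33, the only other gene of the reference table with such a symbol, was not analysed here. The counts came from heart tissue of wild-type C57/BL6J mice, cut from the apex after 30 min of myocardial ischaemia and 120 min of reperfusion. In 3 samples the mice had received 10 µg/kg of the sedative dexmedetomidine, which activates alpha-2 adrenergic receptors, by tail vein 20 min before surgery. They had also been given the vehicle of yohimbine, a blocker of those receptors, 30 min earlier. In the other 3 samples the mice had received the vehicles of both drugs before surgery, for which the labels give no intervals. All animals therefore underwent ischaemia and reperfusion and none received yohimbine, and a group without injury was not analysed here. An infusion time of 10 min is given for both groups. The labels do not say whether each sample was 1 animal, so p-values measure only the spread between these samples. Neither age nor sex is given in the sources used here.

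The mitochondrial ribosome translates the messenger RNAs of mitochondrial DNA into a few membrane proteins, all parts of the complexes that respire and make ATP. Its ribosomal RNAs come from mitochondrial DNA, while all of its proteins are coded in the nucleus, made in the cytosol and imported. The small subunit binds the messenger RNA and holds the decoding centre, and the large subunit joins the amino acids and passes the chain to the inner membrane. The heart depends on this machinery because its work rests on oxidative phosphorylation, and inherited defects of several of these proteins cause cardiomyopathy in humans. Many members descend from bacterial ribosomal proteins and others are found only in mitochondria.

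Gene counts per library, in units of 1000000, were between 42.7 and 56.6. Transcripts of the mitochondrial genome made up 22.0% to 25.2% of gene counts in the vehicle libraries, 27.1% in dexmedetomidine replicate 1, and 36.9% and 38.2% in dexmedetomidine replicates 2 and 3. The 77 members together held 0.245% to 0.350% of gene counts. Levels below are CPM, counts per 1000000 counts after scaling by the TMM method, which sets most genes equal between libraries. Each log2 fold change is the dexmedetomidine level less the vehicle level, with a standard error (SE), from edgeR's quasi-likelihood test on all genes that passed a filter on low counts, with Benjamini-Hochberg adjustment over all 14738 of them. Of the 77 members 76 passed the filter. Mrpl53, a protein of the stalk, was listed at 0 in all 6 libraries. In the reference annotation 88.0% of its exon bases also belong to other genes of the table, chiefly Gm42688 on the same strand, and whether its reads were set aside as ambiguous was not tested.

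No member passed an adjusted p of 0.05 in edgeR, and neither did any other gene (0% of genes tested). At an unadjusted p under 0.05, edgeR had 18 members lower after dexmedetomidine, against 9.03% of all tested genes, and 1 member higher, against 12.5%. DESeq2 called 5 members lower and 1 higher at an adjusted p of 0.05, where it called 2.66% of all genes lower and 5.97% higher. Limma-voom with quality weights called 14 lower and 1 higher, against 5.20% and 8.79% of all genes. For the single genes below, the DESeq2 adjusted p is printed only where it was under 0.05. It was above 0.05 for every other tested gene named, among them Mrps24 (0.0575), Mrps21 (0.0594) and Lars2 (0.0788). By sign alone 57 of 76 members were lower, against 49.7% of all genes, and 19 were higher, against 50.3%, with a median log2 fold change of -0.13 (all genes 0.0032). In tissue a lower level can stand for fewer cells of a type or for less RNA per cell, which cannot be told apart here. Groups stood apart, with no overlap of values, in 12 lower and 5 higher members, against 12% and 15.6% of all genes. The number of members lower at an unadjusted p under 0.05 was 13, 7 and 19 without vehicle replicates 1, 2 and 3. It was 26, 5 and 4 without dexmedetomidine replicates 1, 2 and 3. Over all genes and both directions, 3172 had such a p with all 6 libraries. In the fits with 1 library left out, in the same order, 2552, 2237, 4042, 3555, 2128 and 1795 genes did.

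The libraries of a group were not alike. Vehicle replicate 2 was the highest of the 6 libraries for 56 of 76 members (26.1% of all genes), and vehicle replicate 3 was the lowest for 23 (15.9% of all genes). Dexmedetomidine replicate 1 lay within the vehicle range for 48 members (47.7% of all genes) and was the highest library of its group for 50 (38.3%). Dexmedetomidine replicates 2 and 3 both lay below all vehicle libraries for 35 members (22.3% of all genes) and both above them for 6 (23.4%). As a mean over the 76 members of log2 CPM centred on each gene, the vehicle libraries stood at 0.061, 0.236 and -0.057 and the dexmedetomidine libraries at 0.053, -0.135 and -0.159 for replicates 1, 2 and 3. The groups overlapped at this level, since dexmedetomidine replicate 1 stood above vehicle replicate 3. The share of mitochondrially encoded transcripts was likewise nearer to the vehicle libraries in dexmedetomidine replicate 1 than in the other two, and its part in the members' levels was not tested. With library sizes taken from nuclear genes only, the median log2 fold change was -0.153 (large subunit) and -0.149 (small subunit), against -0.014 for all genes. Without vehicle replicate 2 the median log2 fold change was -0.056, with 45 of 76 members lower.

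**Figure D1:**
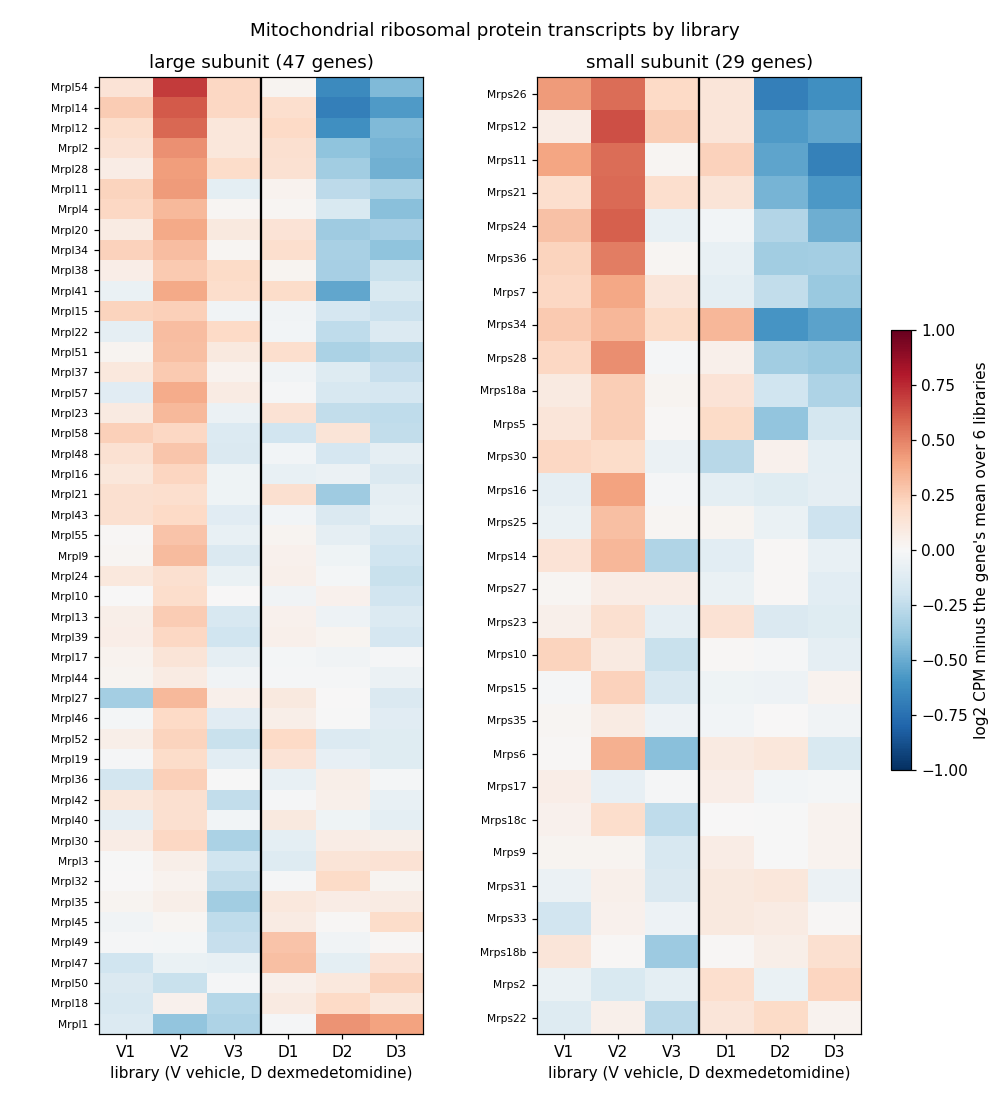
Heat map of log2 CPM minus each gene's mean over the 6 libraries for the 47 large and 29 small subunit members that passed the filter, ordered by log2 fold change; columns are vehicle (V1 to V3) and dexmedetomidine (D1 to D3) libraries. Vehicle replicate 2 is the highest library for 56 of 76 members, and D2 and D3 both lie below all vehicle libraries for 35.

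Among small subunit members, 20 of 29 were lower (69.0%, against 49.7% of all genes). At an unadjusted p under 0.05, 8 were lower (9.03% of all genes) and none was higher (12.5%). Mrps7, the relative of a bacterial protein that organises assembly of the small subunit head, had levels of 54.2, 61.5 and 51.2 CPM in the vehicle group, in the order of replicates 1 to 3 used throughout, and of 43.9, 39.7 and 36.4 CPM in the dexmedetomidine group. The groups did not overlap, and all dexmedetomidine libraries were below the lowest vehicle library. Its log2 fold change was -0.48 (SE 0.13, n = 3 each, edgeR adjusted p = 0.109), a level 1.39-fold lower, and the DESeq2 adjusted p was 0.0269. Without vehicle replicate 3 Mrps7, Mrps24 and Mrps36 passed in edgeR, the only members that did in any of the 6 fits with 1 library left out. In that fit 1251 of all 15048 genes tested passed, 329 of them lower and 922 higher.

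Mrps26, found only in mitochondrial ribosomes, measured 29.0, 31.9 and 24.8 CPM after vehicle and 23.6, 13.5 and 14.1 CPM after dexmedetomidine. Dexmedetomidine replicate 1 was close to the lowest vehicle library and the other two were well below it. Its log2 fold change of -0.74 (SE 0.22, edgeR adjusted p = 0.119, DESeq2 adjusted p = 0.0225) was the lowest of all members. Mrps21, the relative of a bacterial small subunit protein, measured 52.1, 68.5 and 51.9 CPM after vehicle and 50.7, 33.6 and 31.1 CPM after dexmedetomidine (log2 fold change -0.58, SE 0.20, edgeR adjusted p = 0.147). Its dexmedetomidine replicate 1 was just under the vehicle range.

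Mrps24, a protein on the path by which messenger RNA enters, measured 66.9, 82.5 and 51.7 CPM after vehicle and 53.5, 44.4 and 38.8 CPM after dexmedetomidine, with overlap of the groups (log2 fold change -0.56, SE 0.19, edgeR adjusted p = 0.138). Mrps12, which forms part of the decoding centre, measured 20.8, 30.9 and 23.4 CPM after vehicle and 21.4, 13.3 and 13.8 CPM after dexmedetomidine. Here dexmedetomidine replicate 1 lay inside the vehicle range, and the log2 fold change was -0.63 (SE 0.22, edgeR adjusted p = 0.150). Mrps36 carries a ribosomal name, but later work placed its product in the 2-oxoglutarate dehydrogenase complex. It measured 32.8, 40.1 and 28.5 CPM after vehicle and 26.7, 22.1 and 22.2 CPM after dexmedetomidine, without overlap (log2 fold change -0.51, SE 0.16, edgeR adjusted p = 0.120, DESeq2 adjusted p = 0.0471).

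Among large subunit members, 37 of 47 were lower (78.7%, against 49.7% of all genes). At an unadjusted p under 0.05, 10 were lower (9.03% of all genes) and 1 was higher (12.5%). Mrpl54, a protein found only in mitochondrial ribosomes, had levels of 27.3, 40.4 and 28.7 CPM after vehicle and of 25.3, 16.0 and 18.3 CPM after dexmedetomidine. The groups did not overlap, and the vehicle mean rested in part on replicate 2. The log2 fold change was -0.69 (SE 0.21, edgeR adjusted p = 0.121, DESeq2 adjusted p = 0.0290), and it was -0.49 without vehicle replicate 2. Mrpl14, which lies at the face where the subunits join, measured 35.7, 45.9 and 34.6 CPM after vehicle and 33.6, 18.7 and 20.2 CPM after dexmedetomidine. All its dexmedetomidine libraries were below the vehicle range, replicate 1 only just (log2 fold change -0.68, SE 0.23, edgeR adjusted p = 0.145, DESeq2 adjusted p = 0.0428).

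Mrpl2 and Mrpl4 descend from bacterial proteins of the large subunit core. Mrpl4 measured 97.4, 105.9 and 85.7 CPM after vehicle and 85.8, 75.8 and 63.3 CPM after dexmedetomidine, with a log2 fold change of -0.36 (SE 0.14, edgeR adjusted p = 0.187). Mrpl2 measured 50.2, 62.4 and 49.3 CPM after vehicle and 50.8, 34.5 and 32.9 CPM after dexmedetomidine (log2 fold change -0.45, SE 0.18, edgeR adjusted p = 0.191). Both groups overlapped through dexmedetomidine replicate 1. Mrpl38, a mitochondria-specific protein of the central protuberance, measured 41.5, 47.6 and 45.2 CPM after vehicle and 40.4, 31.4 and 33.9 CPM after dexmedetomidine (log2 fold change -0.34, SE 0.13, edgeR adjusted p = 0.177). Its groups did not overlap. Mrpl12, a stalk protein that also binds the mitochondrial RNA polymerase, measured 44.2, 58.3 and 42.3 CPM after vehicle and 45.0, 25.6 and 28.8 CPM after dexmedetomidine (log2 fold change -0.54, SE 0.22, edgeR adjusted p = 0.205), again with replicate 1 inside the vehicle range.

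Mrpl1 went the other way. It codes for the relative of a bacterial protein of the mobile stalk by which spent transfer RNA leaves. It measured 25.5, 21.2 and 22.6 CPM after vehicle and 27.7, 38.2 and 37.0 CPM after dexmedetomidine. All dexmedetomidine libraries were above the highest vehicle library, replicate 1 by little. The log2 fold change was 0.57 (SE 0.15, edgeR adjusted p = 0.110, DESeq2 adjusted p = 0.0321), a level 1.48-fold higher, and it was the highest of all members. It was 0.012 once the trend with GC content and length described below was removed.

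Mrpl50, found only in mitochondrial ribosomes, measured 39.7, 37.5 and 43.4 CPM after vehicle and 45.3, 47.2 and 51.2 CPM after dexmedetomidine (log2 fold change 0.25, SE 0.12, edgeR adjusted p = 0.246). Mrpl18, a protein of the central protuberance, measured 40.5, 46.7 and 37.1 CPM after vehicle and 48.4, 52.2 and 49.0 CPM after dexmedetomidine (log2 fold change 0.27, SE 0.12, edgeR adjusted p = 0.249). The groups did not overlap for either gene. With the GC and length trend removed Mrpl18 was at 0.36 and Mrpl50 at -0.17. In the small subunit the higher members with the smallest p were Mrps22 (0.23, SE 0.14), Mrps2 (0.22, SE 0.13) and Mrps33 (0.13, SE 0.13), with edgeR adjusted p of 0.388, 0.358 and 0.613. Mrps2 was the 1 of these 3 without overlap, at 23.95, 22.6 and 23.4 CPM after vehicle and 28.2, 24.02 and 29.1 CPM after dexmedetomidine. Its dexmedetomidine replicate 2 was only just above vehicle replicate 1.

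**Figure D2:**
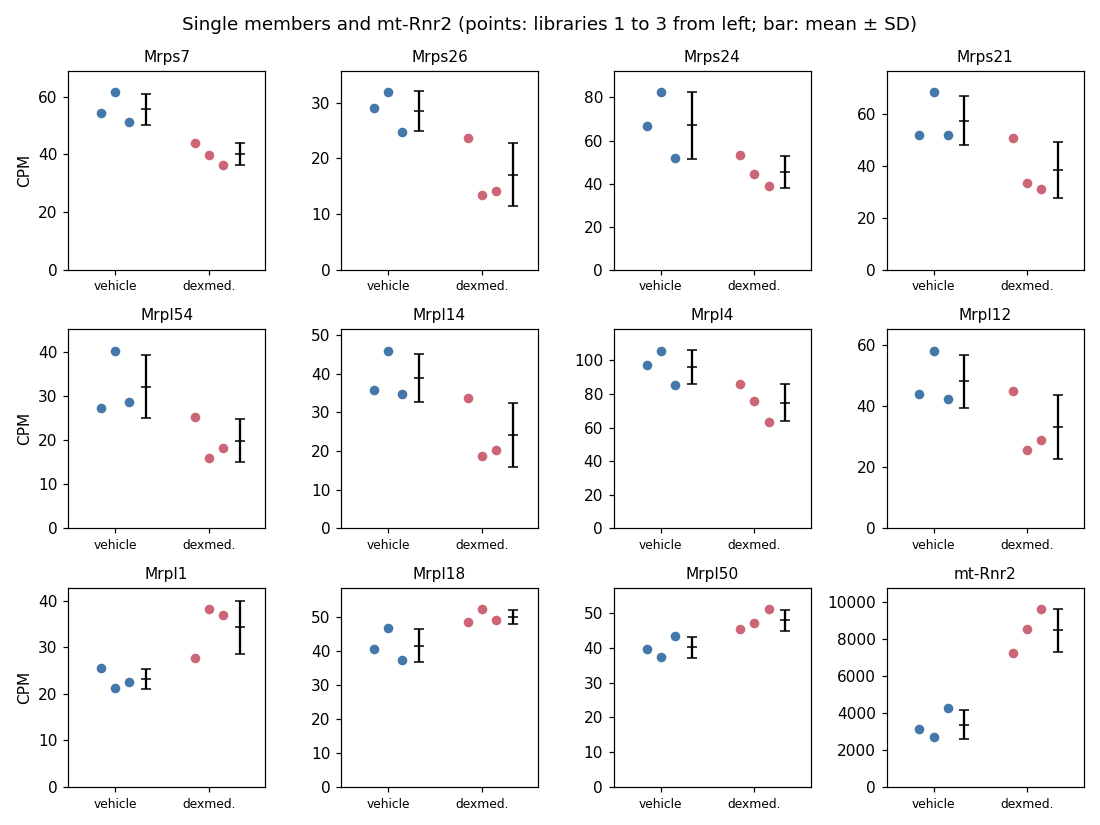
CPM in each library for 11 members and for mt-Rnr2, the large ribosomal RNA of the mitochondrion; points are replicates 1 to 3 from left to right and bars are mean ± SD (n = 3), on axes that start at 0. Mrps7 has no overlap between groups (36.4 to 43.9 against 51.2 to 61.5 CPM), while Mrpl12 and Mrpl4 overlap through dexmedetomidine replicate 1.

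Members linked to human cardiomyopathy did not share a direction. Mrpl3 stood at 81.4 ± 7.54 CPM in the vehicle and 87.3 ± 9.18 CPM in the dexmedetomidine group (SD, n = 3 each), a log2 fold change of 0.10 (SE 0.13). Mrpl44 stood at 39.4 ± 1.58 and 38.1 ± 0.686 CPM (-0.050, SE 0.11), with little spread between libraries. Mrps14 stood at 35.6 ± 7.61 and 32.4 ± 1.31 CPM (-0.13, SE 0.16, and -0.88 with the GC and length trend removed) and Mrps22 at 15.3 ± 1.73 and 17.95 ± 1.01 CPM. For these 4 genes the edgeR adjusted p was between 0.388 and 0.835. In all, 21 of 76 members had a log2 fold change under 0.1 in size, against 20.6% of all genes, and 14 were lower by more than 0.4, against 13.6%. Only Mrpl1 was higher by more than 0.4, against 19.7% of all genes.

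The members at sites of special function were as follows. Mrpl45, which anchors the ribosome to the inner membrane at the exit of the tunnel, stood at 46.2 ± 4.51 CPM in the vehicle and 52.3 ± 3.20 CPM in the dexmedetomidine group (log2 fold change 0.18, SE 0.12, edgeR adjusted p = 0.433). Of the 8 members that line the exit site none had an unadjusted p under 0.05, and their median log2 fold change was -0.057, or -0.011 without vehicle replicate 2. Of the 7 members listed for the central protuberance 6 were lower, with a median of -0.047. This rested on the setting, since 3 of 7 were lower without vehicle replicate 2 (median 0.049) and 1 of 7 with the GC and length trend removed (median 0.10). The 3 measured stalk proteins (Mrpl10, Mrpl11 and Mrpl12) were all lower, with a median of -0.37. It was -0.24 without vehicle replicate 2 and -0.27 with the GC and length trend removed, when Mrpl10 was at 0.028. Mrpl58, a relative of release factors that frees stalled ribosomes, had a log2 fold change of -0.21 (SE 0.16, edgeR adjusted p = 0.480).

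The Mrps18 paralogs descend from the same bacterial small subunit protein and occupy different places on the mitochondrial ribosome. Mrps18a had a log2 fold change of -0.23 (SE 0.14), Mrps18b of 0.14 (SE 0.17) and Mrps18c of 0.016 (SE 0.15), none with an edgeR adjusted p under 0.375. Mrps18a was the most counted of them, at 43.8 ± 3.43 CPM after vehicle, where Mrps18c stood at 16.9 ± 2.49 and Mrps18b at 11.7 ± 1.98 CPM. Structures place Mrps18a, and Mrps30 as well, in the large subunit in spite of their symbols. Mrps30 measured 61.1, 60.3 and 50.9 CPM after vehicle and 43.7, 54.6 and 49.6 CPM after dexmedetomidine. Its dexmedetomidine replicate 1 was the lowest library, unlike most members, and the log2 fold change was -0.22 (SE 0.13, edgeR adjusted p = 0.363).

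The subunits had close median log2 fold changes, -0.14 over 47 large and -0.13 over 29 small subunit members, a difference of -0.0030. As means of gene-centred log2 CPM, the large less the small subunit was -0.056, -0.034 and -3.6e-06 in vehicle replicates 1, 2 and 3. It was 0.0078, 0.035 and 0.048 in the dexmedetomidine replicates, above all vehicle libraries, and was given no test. With Mrps30 and Mrps18a counted in the large subunit and Mrps36 left out, the medians were -0.15 and -0.091. Proteins with bacterial relatives had medians of -0.14 (29 large subunit members) and -0.18 (16 small subunit members), and mitochondria-specific proteins of -0.115 (18 members) and -0.056 (10 members). Without vehicle replicate 2 these medians were -0.063 and -0.051 for the former and -0.060 and -0.010 for the latter. The list of 10 members includes Mrps18b (log2 fold change 0.14), although the Mrps18 paralogs descend from a bacterial protein. With the GC and length trend removed the medians were -0.12 for the large and -0.24 for the small subunit, against -0.029 for all genes. Without vehicle replicate 2 they were -0.063 and -0.054, and without dexmedetomidine replicate 3 they were -0.072 and -0.11. Without vehicle replicate 3 they were at -0.23 and -0.21.

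As a sum of CPM, the large subunit stood at 2133, 2397 and 1935 in vehicle replicates 1, 2 and 3 and at 2099, 1929 and 1874 in the dexmedetomidine replicates. The small subunit stood at 1027, 1152 and 928 CPM after vehicle and at 982, 871 and 851 CPM after dexmedetomidine. The groups overlapped in both sums. The ratio of the sums was narrow within groups, at 2.08, 2.08 and 2.09 after vehicle and 2.14, 2.22 and 2.20 after dexmedetomidine, and all dexmedetomidine libraries had the higher ratio. Mrpl42 and Mrpl30 alone held 10.5% to 13.5% of the members' summed CPM. Without these 2 genes, which were singled out after their values were seen, the ratio was 1.70, 1.73 and 1.76 after vehicle and 1.78 in each dexmedetomidine library. The ratio is a sum over genes chosen by name and was given no test.

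**Figure D3:**
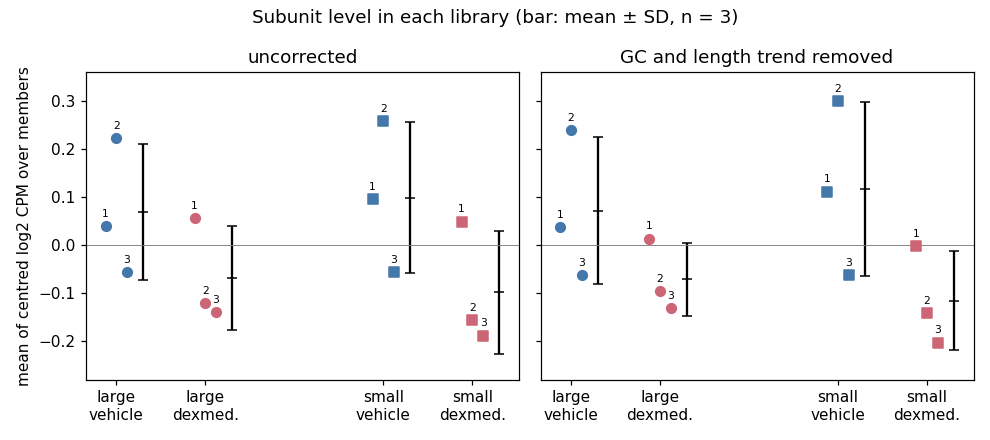
Mean over members of gene-centred log2 CPM for each library, for the large (circles) and small (squares) subunit, before (left) and after (right) the trend with GC content and length was removed; digits are replicate numbers and bars are mean ± SD (n = 3). Vehicle replicate 2 is the highest and dexmedetomidine replicate 3 the lowest library in each panel, and the groups overlap between dexmedetomidine replicate 1 and vehicle replicate 3.

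To compare levels between genes, mean CPM over the 6 libraries was divided by the deposited gene length in kilobases. Levels of the 76 members ran from 2.39 CPM per kb for Mrps10 to 327 CPM per kb for Mrpl42. Mrpl42 stood far above the next members, Mrpl30 (74.4), Mrpl52 (70.3) and Mrpl4 (66.7 CPM per kb). In the small subunit the highest were Mrps23 (65.5), Mrps16 (46.7) and Mrps28 (45.1 CPM per kb). The lowest were Mrpl19 (3.97) and Mrpl47 (4.26) in the large and Mrps25 (3.47) and Mrps10 in the small subunit. Low ranks went with long deposited lengths, 8079 bases for Mrps10, 6576 for Mrps25 and 5450 for Mrpl19 against 666 for Mrpl42, so the order depends on the gene models. For Mrpl42, Mrpl30 and Mrps23 the group means differed by less than the SD of the libraries. Mrpl42 stood at 219.9 ± 32.4 and 215.1 ± 9.03 CPM, and Mrpl30 at 146.2 ± 26.5 and 147.0 ± 9.81 CPM (SD, n = 3). Mrps23 stood at 104.9 ± 9.13 and 99.4 ± 11.3 CPM. In the reference annotation 3 members share over 50% of their exon bases with other genes, namely Mrpl53, Mrps34 (77.8%, with Mapk8ip3 on the other strand) and Mrps25 (69.8%, with Nr2c2 on the other strand). The values of Mrps34 and Mrps25 are uncertain because the strand setting of the counting is not known, and that of Mrpl53 because its overlap is on the same strand. In all 27 members share some exon bases, Mrps11 and Mrpl46 with each other.

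**Figure D4:**
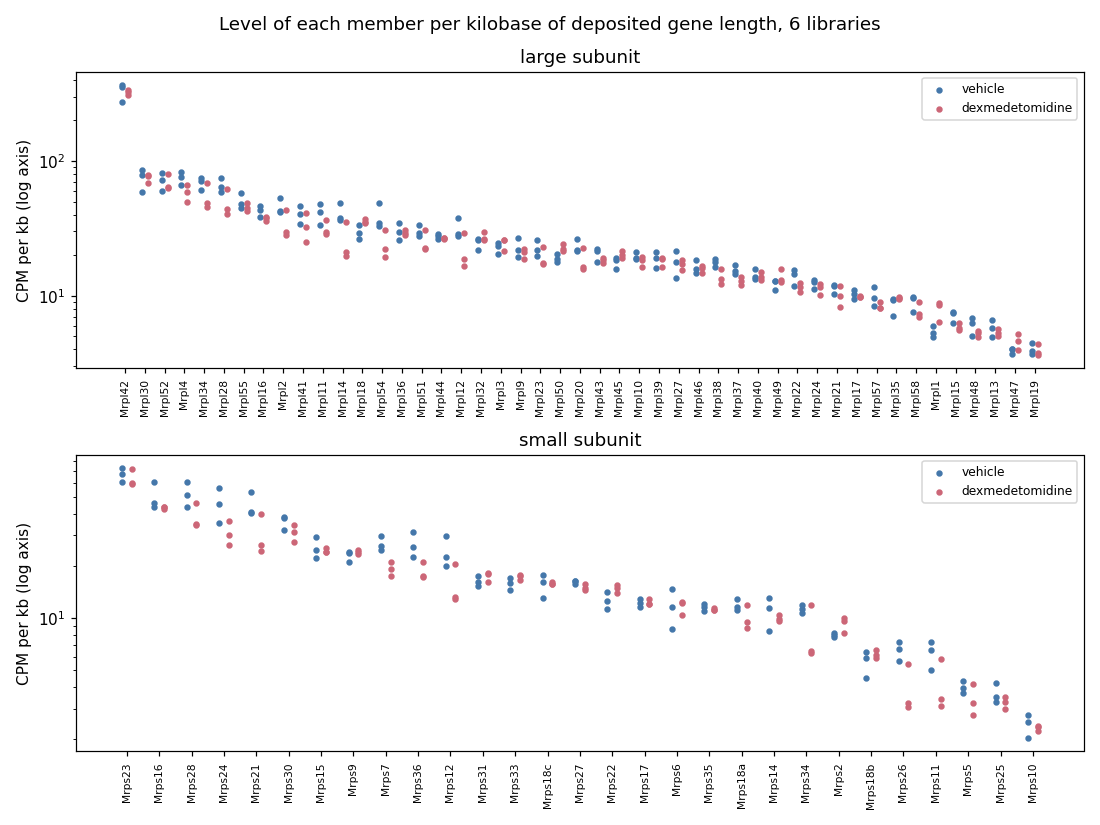
CPM per kilobase of deposited gene length, on a log axis, for each member with counts, ranked within its subunit; each point is 1 library (blue vehicle, red dexmedetomidine). Mrpl42 at 327 CPM per kb stands above all others, and Mrps10 at 2.39 is the lowest.

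The GC content of a gene's longest transcript went with the fold change, in the members as in all genes. Over 76 members Spearman's rho was -0.51, and over 14329 genes with a GC value it was -0.63; genes of 1 library share its depth and base composition, so these are descriptions. Median GC content was 49.8% in the members and in all genes, whereas the members were shorter, with a median deposited length of 1718 against 3596 bases. The 19 members with the highest GC content (53.3% to 60.4%) were all lower, with a median log2 fold change of -0.44. They include Mrpl54, Mrpl14, Mrps12, Mrps7, Mrps24 and Mrpl12. Of the 19, 12 were lower at an unadjusted p under 0.05, against 9.03% of all genes of any GC content. That share was not counted among other genes of the same GC range. Other genes of that GC range had a median of -0.23, with 81.1% lower. Of the 19 members with the lowest GC content (38.6% to 44.7%) 9 were lower, with a median of 0.0086, where other genes of that range had a median of 0.40 and 12.7% were lower.

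With each library's trend with GC content and length removed, 54 of 76 members were lower (54.1% of all genes), 16 at an unadjusted p under 0.05 (7.68%) and 1 higher (4.93%). EdgeR then called no gene at an adjusted p of 0.05. Which members stood out was not the same. Mrps26 was at -0.77 and Mrps36 at -0.53, near their former values, while Mrps7 was at -0.24, Mrpl54 at -0.24 and Mrpl14 at -0.28. Mrpl4, Mrpl2 and Mrpl38 were at -0.066, -0.11 and 0.0050, and Mrps24, Mrps12 and Mrpl12 at -0.30, -0.31 and -0.27. Mrps18a was at -0.065 and Mrps18b at 0.28. Members poor in GC were lower than before, such as Mrpl15 from -0.28 to -1.01, Mrps30 from -0.22 to -0.79 and Mrpl42 from -0.032 to -0.31. Over the 76 members the correlation of GC content with the fold change was then 0.45, against 0.049 over all genes.

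**Figure D5:**
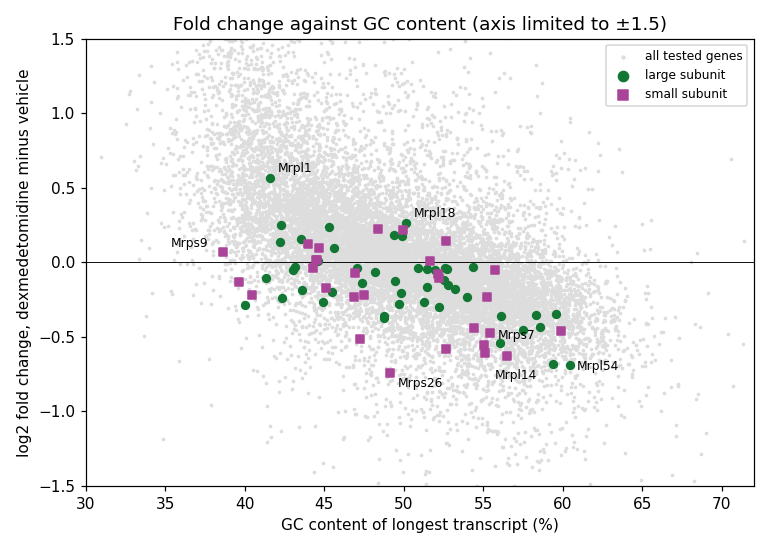
Log2 fold change against GC content of the longest transcript for all tested genes (grey), large subunit members (circles) and small subunit members (squares); 322 genes lie outside the plotted range of ±1.5. Members from 53.3% GC upwards all lie below 0, and Mrpl1 is the highest member.

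Proteins and RNAs that work with these members are given from lists chosen by name. Of 5 proteins of the mitochondrial ribosome without an Mrp symbol, 4 were lower. Gadd45gip1, in the large subunit, measured 26.1, 28.2 and 22.97 CPM after vehicle and 20.1, 12.9 and 12.7 CPM after dexmedetomidine, without overlap (log2 fold change -0.76, SE 0.20, edgeR adjusted p = 0.109, DESeq2 adjusted p = 0.0103). The exception was Ptcd3, a small subunit protein at the messenger entry, at 99.3 ± 9.15 and 123.1 ± 8.86 CPM (log2 fold change 0.31, SE 0.12, edgeR adjusted p = 0.186, and -0.17 with the GC and length trend removed).

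The ribosomal RNAs with which the proteins assemble had the opposite sign. The large ribosomal RNA mt-Rnr2 measured 3113, 2720 and 4261 CPM after vehicle and 7262, 8517 and 9612 CPM after dexmedetomidine (log2 fold change 1.33, SE 0.18, edgeR adjusted p = 0.101, DESeq2 adjusted p = 1.3e-07). The small ribosomal RNA mt-Rnr1 measured 1463, 1531 and 1748 CPM after vehicle and 2198, 3039 and 2426 CPM after dexmedetomidine (log2 fold change 0.69, SE 0.15, edgeR adjusted p = 0.101, DESeq2 adjusted p = 0.00276). The groups did not overlap for either. With the GC and length trend removed mt-Rnr2 fell to 0.35, while mt-Rnr1 changed sign, to -0.23. In that setting the opposite sign therefore held for mt-Rnr2 only. These libraries were made from polyadenylated RNA, so they count only that part of each ribosomal RNA. The 13 messenger RNAs of the mitochondrial genome were all higher, with a median of 0.80 and of 0.11 with that trend removed, when 5 of 13 were lower. Those with the smallest p were mt-Nd2 (1.17, SE 0.24) and mt-Nd6 (1.32, SE 0.28), both with an edgeR adjusted p of 0.101 and with DESeq2 adjusted p of 0.000191 and 9.8e-05. DESeq2 called 11 of the 13. Dexmedetomidine replicate 1 was the nearest of its group to the vehicle libraries for both, at 19907 CPM for mt-Nd2, where the others had 33349 and 38284 and the vehicle libraries 10933 to 15099 CPM.

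Of 25 assembly factors, which process the ribosomal RNA and join the subunits, 12 were lower and 13 higher, with 2 and 3 of them at an unadjusted p under 0.05 (9.03% and 12.5% of all genes). Their median was 0.0030, and it was -0.0065 without vehicle replicate 2 and 0.064 with the trend removed. Gtpbp10, a GTPase of large subunit assembly, was at 7.93 ± 2.15 and 15.2 ± 2.39 CPM (log2 fold change 0.94, SE 0.21, edgeR adjusted p = 0.101, DESeq2 adjusted p = 0.00416), and 0.21 with the trend removed. Mterf3, which acts on mitochondrial ribosomal RNA, was at 0.59 (SE 0.17, DESeq2 adjusted p = 0.0411) and at 0.091 with the trend removed. Of 15 translation factors 7 were lower, with a median of 0.00073 (-0.016 with the trend removed). The initiation factor gene Mtif2 measured 24.6, 19.8 and 25.9 CPM after vehicle and 33.9, 34.5 and 35.1 CPM after dexmedetomidine (log2 fold change 0.56, SE 0.14, edgeR adjusted p = 0.107, DESeq2 adjusted p = 0.0172), and was at 0.26 with the trend removed. The elongation factor gene Guf1 was at 0.44 (SE 0.12, DESeq2 adjusted p = 0.0432), and at -0.58 with the trend removed.

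Of 17 mitochondrial aminoacyl-tRNA synthetase genes, whose products load transfer RNAs, 10 were lower, with a median of -0.039 (-0.083 with the trend removed and -0.016 without vehicle replicate 2). Lars2 measured 256.6, 247.3 and 239.8 CPM after vehicle and 267.6, 424.7 and 347.3 CPM after dexmedetomidine (log2 fold change 0.48, SE 0.16, edgeR adjusted p = 0.141), and Hars2 was at 0.38 (SE 0.13). Of 11 genes for mitochondrial transcription and RNA processing 3 were lower and 8 higher, 6 of the latter at an unadjusted p under 0.05 (12.5% of all genes), with a median of 0.36 (0.11 with the trend removed). Pnpt1, an RNA-degrading enzyme, had a log2 fold change of 0.63 (SE 0.13, edgeR adjusted p = 0.101, DESeq2 adjusted p = 0.00356) and of -0.082 with the trend removed, and Trmt10c, a subunit of mitochondrial RNase P, of 0.75 (SE 0.20, edgeR adjusted p = 0.109, DESeq2 adjusted p = 0.0192) and 0.30. Of 84 cytoplasmic ribosomal protein genes 68 were lower. Their median was -0.22, and it was -0.13 both without vehicle replicate 2 and with the trend removed. Whether these lists differ from the members was not tested.

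Markers of the cells of the heart wall are given beside the members. All 8 cardiomyocyte markers were measured, 5 of them lower, and their summed level was 42810 to 48850 CPM in the vehicle and 39100 to 42080 CPM in the dexmedetomidine libraries, without overlap. The 6 endothelial markers summed to 876 to 987 and 879 to 960 CPM, and the 6 fibroblast markers to 798 to 913 and 914 to 1198 CPM. The 6 mural cell markers summed to 966 to 1079 CPM after vehicle and 1275 to 1449 CPM after dexmedetomidine, although 4 of the 6 were lower. Macrophage markers summed to 116 to 144 and 110 to 142 CPM, neutrophil markers to 60.8 to 119 and 46.7 to 183 CPM, and erythroid markers to 386 to 607 and 363 to 679 CPM. Markers of lymphocytes (0.734 to 2.41 CPM) and adipocytes (0 to 1.00 CPM) were near 0 in all libraries, and the 4 atrial markers summed to 7.52 to 59.9 CPM. The part of these cells in the members' levels was not tested.

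Promoters were compared because most members had a negative log2 fold change and because genes for mitochondrial proteins are often bound by NRF1 and by ETS factors such as GABP. The 250 bases before the first listed RefSeq start (GRCm38.p6) were read for the 68 members with an entry and searched on both strands. The ETS letters CCGGAAG stood in 25% of member windows, in 13.1% of those of all tested genes and in 7.05% of all 27025 windows. The NRF1 letters GCGCATGC stood in 10.3%, 4.33% and 2.32%, and the YY1 letters AAGATGGCG in 2.94%, 1.14% and 0.607%. The CCAAT letters stood in 35.3%, 35.8% and 34.5%. The ETS letters were in 12 of 48 windows of members with a lower value and in 4 of 19 windows of members with a higher value. They were also in the window of Mrpl53, which has no fold change. Each motif was searched by itself, so matches of different motifs may share bases. 3 windows are shown, those of the lower and of the higher member with the smallest p among those with an ETS match, and of the member with the smallest p that holds both ETS and NRF1 letters. Capitals mark the ETS and NRF1 letters, while CCAAT letters, which stand in the windows of Mrps26 and Mrpl18, are in lower case. Mrps26 lies at chr2:130563507-130563756 (plus strand), Mrpl18 at chr17:12916092-12916341 (minus strand) and Mrpl22 at chr11:58171414-58171663 (plus strand), each written from 5′ to 3′ on the strand of the gene.
Mrps26: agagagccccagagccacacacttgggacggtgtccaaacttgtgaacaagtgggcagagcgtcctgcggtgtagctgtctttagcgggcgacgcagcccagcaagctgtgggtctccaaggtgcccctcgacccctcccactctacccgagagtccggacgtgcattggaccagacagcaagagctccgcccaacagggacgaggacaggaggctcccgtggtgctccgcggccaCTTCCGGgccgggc
Mrpl18: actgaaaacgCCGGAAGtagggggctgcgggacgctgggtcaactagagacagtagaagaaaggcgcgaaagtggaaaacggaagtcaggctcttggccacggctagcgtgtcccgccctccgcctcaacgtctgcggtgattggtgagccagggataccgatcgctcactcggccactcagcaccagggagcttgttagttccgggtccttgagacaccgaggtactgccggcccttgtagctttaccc
Mrpl22: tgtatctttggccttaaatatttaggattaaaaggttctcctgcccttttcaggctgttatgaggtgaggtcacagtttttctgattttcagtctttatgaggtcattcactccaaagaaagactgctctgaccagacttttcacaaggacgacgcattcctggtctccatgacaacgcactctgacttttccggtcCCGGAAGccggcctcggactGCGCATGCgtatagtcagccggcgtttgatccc
The ETS letters begin 14 bases before the start in Mrps26, where they are on the other strand, 240 before it in Mrpl18 and 53 before it in Mrpl22, whose NRF1 letters begin 33 before it. Mrpl22 had a log2 fold change of -0.28 (SE 0.16, edgeR adjusted p = 0.338). A match describes the letters of the window and not a bound site.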

How the data were processed

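The authors deposited raw counts for 6 libraries in a single gene table that also gives gene lengths in bases. Per the labels' protocols, libraries were made from 1 µg of RNA by poly-T selection and an NEBNext Ultra kit. The submitters' processing notes name Trim Galore, HTSeq and build mm9; their versions, the aligner, the annotation and any strand setting: not given in the sources used here. Groups came from the sample titles. Reads aligned to several places were 28.0% to 31.4% of the table's total in the vehicle libraries and dexmedetomidine replicate 1. They were 39.5% and 39.4% in dexmedetomidine replicates 2 and 3. Ambiguous reads were 1.83% and 1.95% in dexmedetomidine replicates 2 and 3 and 2.23% to 2.37% in the other libraries. Reads outside genes were 2.33% to 3.63%. All of these reads and 2 empty summary rows stayed out of all fits. All pairs of libraries differed by more than sampling noise (chi-square per degree of freedom at least 31.0).

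Symbols matched 32897 of 37620 identifiers in GENCODE M21 (GRCm38), a build other than mm9, which also gave GC content and exon overlap. Genes were tested with edgeR 4.0.16 (robust quasi-likelihood F test, filterByExpr, TMM) in R 4.3.3, with SE as the fold change over the root of F. Functions were first tested on simulated data. Alternatives were size factors of DESeq2, library sizes from nuclear genes, no low-count filter, a floor of 5 on mean CPM, DESeq2 1.42.0, limma-voom 3.58.1 with quality weights, GC and length offsets (natural splines with 5 and 4 degrees of freedom per library), a replicate block, each library left out, and subunits by structure. Gene-centred levels are log2 CPM with a prior count of 2.

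Members and lists were chosen with earlier results of these data known. Named members are, per subunit, the 5 lower and 3 higher with the smallest p, the 3 highest and 2 lowest in CPM per kb, those not past the filter and 13 fixed by function; other lists give 2 genes each. Mrpl22 was added for its promoter, and Mrpl15 for its shift with the GC and length correction, after values were seen. Mrps9 was likewise named after it passed with the replicate block and the offsets. Mrpl10 and Mrpl11 are named as stalk proteins, and Mrps34, Mrps11 and Mrpl46 for shared exon bases.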

Additional observations from a re-analysis of the deposited data

How the results depend on the processing

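Members past an adjusted p of 0.05 numbered 0 in edgeR, 6 in DESeq2, 15 in limma-voom with quality weights and 0 to 3 with 1 library left out, the 3 being without vehicle replicate 3. All genes past the threshold numbered 0 in edgeR, 1272 in DESeq2, 2063 in limma-voom, 406 without a filter and 1251 without vehicle replicate 3, 7 without dexmedetomidine replicate 1 and 5 without dexmedetomidine replicate 2. Deviations of same-numbered libraries from their group means had correlations of -0.055, 0.036 and 0.15, and not every library correlated best with its own number. With n = 3 libraries per group, such correlations cannot decide whether the libraries were paired. The replicate block gave 636 genes and 0 members. With GC and length offsets added to the block, 145 genes and 3 members passed (Mrpl15, Mrps30 and Mrps9). All 3 are among the 19 members with the lowest GC content, and Mrps9 was at 0.069 without offsets. Over the members, the correlation of GC content with the fold change was -0.51 without offsets and 0.45 with offsets alone. The part of this shift in the 3 calls was not tested. Outside the members Gadd45gip1, Gtpbp10, Pnpt1, mt-Nd2, mt-Nd6, mt-Rnr1 and mt-Rnr2 passed with the block alone, and none of the named genes outside the members passed with the offsets added.

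The large minus small median log2 fold change, -0.0030, was 0.12 with GC and length offsets, 0.12 with these and the block, -0.063 with subunits by structure, and between -0.045 and 0.040 with 1 library left out. The medians kept their sign in all fits. With 1 library left out they were between -0.23 and -0.063 (large) and between -0.21 and -0.054 (small), and 45 to 60 members were lower. With library sizes from nuclear genes 61 members were lower.

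Sign changes are listed only for the genes named by the choice described above. Among these, log2 fold changes changed sign with GC and length offsets, and in the second value with these and the replicate block, for Mrpl38 (0.0050, 0.0048), Mrpl50 (-0.17, -0.17), Mrpl30 (-0.23, -0.20), Mrpl52 (0.18, 0.18), Mrps33 (-0.12, -0.11), Mrps23 (0.063, 0.063), Mrpl3 (-0.12, -0.11), Mrpl44 (0.093, 0.093), Mrps18c (-0.18, -0.17), Ptcd3 (-0.17, -0.15), Guf1 (-0.58, -0.55), Pnpt1 (-0.082, -0.073) and mt-Rnr1 (-0.23, -0.25). Members outside that choice also changed sign with the offsets, among them Mrps9 (0.069 to -0.71) and Mrpl10 (-0.12 to 0.028). With library sizes from nuclear genes Mrpl30 was at -0.0075 and Mrps18c at -0.00086, and in limma-voom at -0.00039 and -0.0027. With 1 library left out Mrpl42 ranged from -0.15 to 0.043, Mrpl52 from -0.16 to 0.066, Mrpl19 from -0.13 to 0.044, Mrps14 from -0.29 to 0.0098, Mrpl30 from -0.13 to 0.12, Mrps18c from -0.095 to 0.11 and Mrps10 from -0.19 to 0.021. The cause of these shifts was not tested.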
